A study of Rattus norvegicus with 8 samples.

Results

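Voltage-gated sodium and calcium channels are the proteins that start and shape the electrical signals of neurons. The genes described here were all those whose symbol in the array's probe-to-gene table starts with Scn or Cacn. The rule also took symbols starting with Hcn, the pacemaker channels of mixed sodium and potassium current, but 0 probe sets with a single symbol of that kind were found, so HCN channels are not analysed here. A probe set is a group of short oligonucleotides read together, assigned to a gene by that table. The rule gave 46 probe sets for 27 genes out of 8740 probe sets that were not controls, 20 for 13 sodium channel genes and 26 for 14 calcium channel genes.

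Total RNA of whole rat brain was measured on 8 arrays, 1 per sample. All rats were intubated. The 3 control samples came from rats exposed to isoflurane, a volatile anaesthetic, for 3 min and then perfused with ice cold saline. The 1 hr group held 2 samples and the 2 hr group 3 samples, each exposed to isoflurane at 2% for the time named. The labels used here name no strain, sex or age, no isoflurane concentration for the controls and no way of collecting the 1 hr and 2 hr brains. No brain without any isoflurane was analysed here. The labels do not say outright that each sample is a separate rat, so p-values measure the spread between these samples, which may be technical in part.

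A sodium channel is built from a large pore-forming alpha subunit, which opens on depolarisation and carries the rising phase of the action potential, and from small beta subunits. A voltage-gated calcium channel has an alpha-1 pore subunit, which sets its type (L, P/Q, N, R or T), joined in most types by a cytoplasmic beta and an extracellular alpha-2-delta subunit. P/Q and N type channels admit the calcium that triggers transmitter release, L type channels couple activity to transcription, and T type channels support rhythmic bursting, for example in the thalamus. Volatile anaesthetics are known to reduce current through several of these channels. The comparisons asked whether the amount of channel transcript in the brain differed after 1 hr or 2 hr from that after the brief exposure.

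No channel gene passed the test in any comparison. Intensities are linear values as deposited. Values under 9.1, the 20th percentile of all values, were set to 9.1 (the floor, 3.19 on the log2 scale) before log2 was taken. Testing needed readings over the floor from 2 or more of the 8 arrays, which 40 of the 46 probe sets had, for 24 of the 27 genes. With limma and Benjamini-Hochberg adjustment over 7770 probe sets, 0 of 40 had an adjusted p under 0.05 for 2 hr, 1 hr or any exposure against control or for 2 hr against 1 hr, and the same share, 0%, was called among all probe sets. At an unadjusted p under 0.05 there were 0 of 40 for 2 hr against control, where 1.79% of all probe sets were called, 0 of 40 for 1 hr (2.68% of all), 0 of 40 for any exposure (2.21% of all) and 1 of 40 for 2 hr against 1 hr (2.77% of all). That 1 probe set was of Scn11a.

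**Figure D1:**
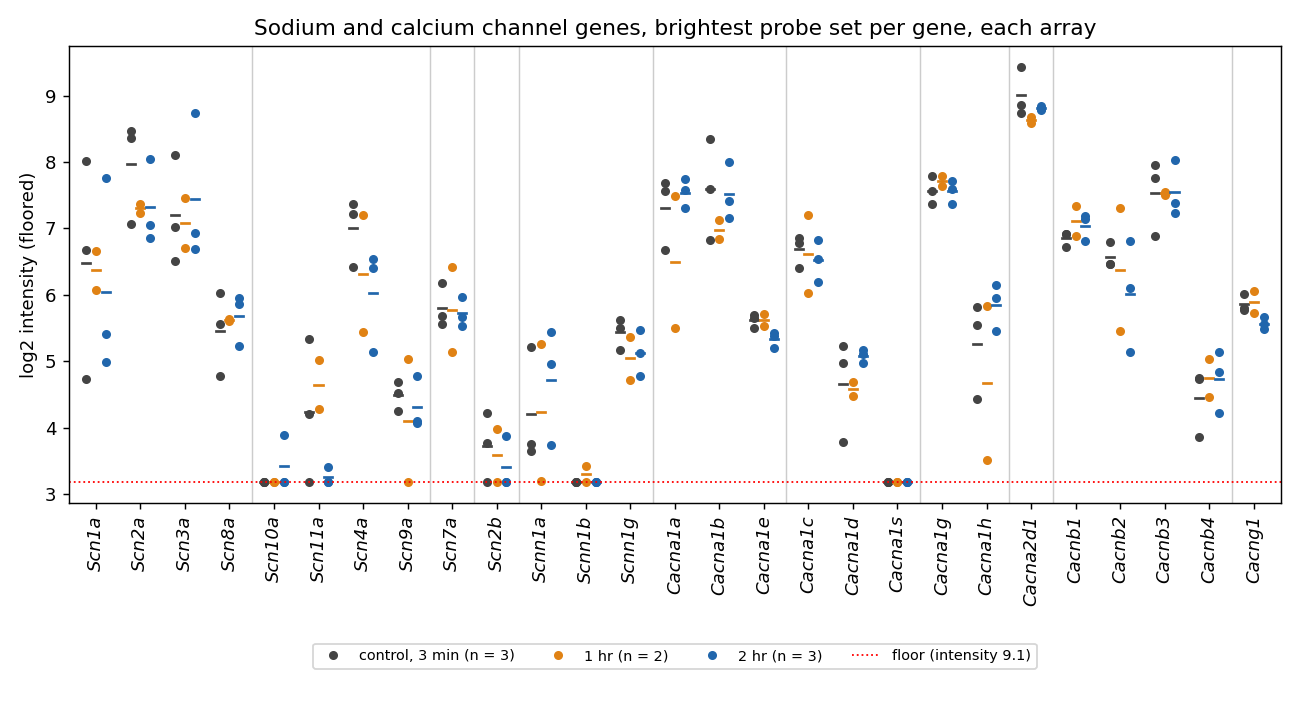
Log2 intensity (vertical axis, floored at 9.1) of the brightest probe set of each of the 27 genes, 1 point per array, with short bars at the group means of controls (n = 3), 1 hr (n = 2) and 2 hr (n = 3). Grey lines part the subfamilies; for most genes the points of the 3 groups interleave, and Cacna1s lies at the floor on every array.

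The muscle L type channel gene and a neuronal N type gene show how the members differ outside the measured values, in the sequence before their start sites. RefSeq's promoter table on build GRCr8, which reads 250 bases before to 50 bases after each start, had 23 entries for 20 of the 27 genes. It held none for Scn1a, Scnn1a, Cacna1g, Cacna1h, Cacnb1, Cacnb4 and Cacng1. The 200 bases before the start are shown for Cacna1b, above the floor on every array, at chr3:27944286-27944485 on the minus strand, and for Cacna1s, at the floor on every array, at chr13:50045468-50045667 on the plus strand. Both run 5′ to 3′ on the strand of the gene, and CG pairs are in capitals.
Cacna1b: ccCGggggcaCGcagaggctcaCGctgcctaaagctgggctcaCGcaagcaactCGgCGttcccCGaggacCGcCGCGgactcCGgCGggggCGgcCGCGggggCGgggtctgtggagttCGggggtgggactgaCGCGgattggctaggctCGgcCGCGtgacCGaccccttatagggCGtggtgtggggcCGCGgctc
Cacna1s: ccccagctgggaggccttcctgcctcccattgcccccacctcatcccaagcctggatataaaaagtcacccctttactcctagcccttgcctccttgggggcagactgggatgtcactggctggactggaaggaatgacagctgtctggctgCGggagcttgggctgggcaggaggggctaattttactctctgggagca

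The Cacna1b stretch holds 26 CG pairs and the Cacna1s stretch 1. Over the whole window, the ratio of CG pairs to the number its base composition gives was above 0.6 for 8 of the 14 genes with an entry that had a probe set above the floor on all 8 arrays, among them Scn8a, Cacna1a, Cacna1d, Cacna2d1 and Cacnb3. It was above 0.6 for 0 of the 6 others (Scn2b, Scn9a, Scn10a, Scn11a, Scnn1b and Cacna1s) and for 34.3% of all 33469 windows in the table. A gene with several windows was counted by its highest ratio. Counted by window, 10 of the 23 entries of the channel genes were above 0.6. Scn2a and Scn3a were above the floor on every array at ratios of 0.35 and 0.50. The letters TATAAA, searched on both strands, were found for Cacna1s alone among the 20 genes and in 14.2% of all windows. The letters GGGCGG, a match to the core of an Sp1 site, were found for 11 of 20 genes and in 33.1% of all windows. For both sets of letters, a gene counted if any of its windows held them. These counts describe the letters of these windows and were not tested.

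For the neuronal alpha subunits of sodium channels, no difference between groups stood out from the spread within them. Replicates are given in order of their number. Scn1a (M22253_at), the alpha subunit of many inhibitory interneurons, read 102.1, 259.9 and 26.6 in the controls, 101.5 and 67.4 after 1 hr, and 215.9, 31.7 and 42.6 after 2 hr. Control replicate 2 and 2 hr replicate 1 were high, control replicate 3 was the lowest of all, and the groups overlapped. Its highest array was 9.77-fold above its lowest, the widest such ratio among the brightest probe sets of the 27 genes, and the 95% interval of its log2 change after 2 hr ran from -2.41 to 1.56. Scn2a (M22254_at), an alpha subunit of excitatory neurons and unmyelinated axons, read 353.4, 328.3 and 133.9 in the controls, 150.3 and 165.3 after 1 hr, and 262.8, 116.4 and 133.2 after 2 hr. Control replicates 1 and 2 lay above every other array, and control replicate 3 lay among the exposed arrays. The log2 change of Scn2a was -0.66 (SE 0.485) after 1 hr and -0.64 (SE 0.434) after 2 hr, with an adjusted p of 1 in limma for each.

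Scn3a, an alpha subunit best known from the embryonic and newborn brain, read 91.2, 129.6 and 274.2 in the controls, 175 and 104.6 after 1 hr, and 103.2, 121.7 and 425.1 after 2 hr on its brighter probe set (Y00766_g_at). The highest array of each group was control replicate 3, 1 hr replicate 1 and 2 hr replicate 3. A second probe set from the same source sequence, Y00766_at, was above the floor on 2 arrays, at 16 on control replicate 3 and 11.8 on 1 hr replicate 2. Scn8a, the alpha subunit of nodes of Ranvier and axon initial segments, read 47.3, 65.3 and 27.6 in the controls, 49.7 and 48.8 after 1 hr, and 58.1, 37.7 and 62.2 after 2 hr (L39018_at). On this probe set all exposed arrays lay within the range of the controls, and the log2 change after 2 hr was 0.23 (95% interval -0.76 to 1.21). On AF049239_s_at and M27223_at, which were dimmer, some exposed arrays lay outside that range. Their log2 changes were -0.65 and 0.17 after 1 hr and -0.15 and 0.08 after 2 hr.

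Sodium channel genes best known from sensory ganglia and muscle were read too, several of them near the floor. In whole brain, a lower reading can come from fewer cells of a type or from less RNA per cell, and these cannot be told apart. Scn11a (AF059030_at), an alpha subunit of pain-sensing neurons, read 18.4, 7.2 and 40.4 in the controls, 32.4 and 19.5 after 1 hr, and 8.6, 10.6 and 7.9 after 2 hr. Both 1 hr arrays lay above all 2 hr arrays, and the controls spanned both. On the floored scale the log2 difference of 2 hr minus 1 hr was -1.39 (SE 0.571, 95% interval -2.67 to -0.11; unadjusted p = 0.0359, adjusted p = 1 in limma), with 2 of 3 arrays of the 2 hr group and 1 control at the floor. Against the controls its log2 change was 0.41 after 1 hr and -0.98 after 2 hr. A floor raised to the 40th percentile gave a difference of -0.11 between 2 hr and 1 hr, and a pseudocount of 16 in place of the floor gave -0.73.

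Scn9a, another alpha subunit of sensory and sympathetic neurons, had a second probe set (U79568_s_at) at 34.6, 16.4 and 24.4 in the controls, 65.5 and 3.7 after 1 hr, and 13.7, 13.8 and 16.3 after 2 hr. All 2 hr arrays lay under all controls (log2 change -0.72, SE 0.655, adjusted p = 1 in limma), though the nearest values were 16.3 and 16.4, and the 1 hr arrays were the highest and the lowest of the 8. The change was -0.46 without control replicate 1 and -0.10 with a floor at the 40th percentile. Its brightest probe set (AF000368_at) read 19.1, 23.1 and 25.7 in the controls, 32.7 and 8.2 after 1 hr, and 16.8, 17.2 and 27.4 after 2 hr, and here the groups overlapped. Scn10a, the third of the sensory alpha subunits, was above the floor only on 2 hr replicate 1, at 14.9, and was not tested. Scn4a, the skeletal muscle alpha subunit, read 165, 85.7 and 149.2 in the controls, 147.3 and 43.3 after 1 hr, and 84.6, 35.4 and 92.7 after 2 hr on M26643_g_at. Its other probe sets read log2 changes of 0.21 and 0.15 after 2 hr where this one read -0.98, so the sign differed between probe sets of the gene.

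Markers of the tissues in which these genes are best known were also read in these samples. All 9 neuron markers were above the floor on every array. Their summed intensities were 3332.7 to 6396.7 in controls, 4690.5 to 5159.6 after 1 hr and 3950.8 to 5898.3 after 2 hr. Of 8 skeletal muscle markers 6 were above the floor on every array (Acta1, Myh1, Myh4, Ckm, Tnnt3 and Pvalb, the last a gene of interneurons too), with summed intensities of 879.5 to 954.6, 1012.3 to 1015.7 and 755.1 to 1066.9 in the 3 groups. Of 9 markers of sensory ganglion neurons, Scn10a and Scn11a among them, 4 were above the floor on every array and Calcb was at the floor on every array. Their sums were 221.2 to 1814.7, 298.5 to 699.6 and 314.7 to 679.4. Of 9 heart markers 6, of 8 pituitary markers 4 and of 5 epithelial markers 3 were above the floor on every array. The sums for heart were 416.5 to 730.5, 425.1 to 519.2 and 394.7 to 504.4, those for pituitary 265.2 to 277.5, 315.5 to 536.2 and 241.9 to 927.6, and those for epithelium 114.6 to 147.5, 85.4 to 161.9 and 131.2 to 209.3. Over the whole series, 5629 of 8740 probe sets were above the floor on every array, as was the brightest probe set of 3394 of 4736 genes. The marker counts alone therefore do not show which tissues the samples held. Many of these marker genes are transcribed in brain as well, and the part of other tissue in the channel readings was not tested.

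Of the remaining sodium channel genes, Scn7a (S75991_at), which encodes a sensor of sodium concentration in glia of the sensory circumventricular organs, read 51.1, 47.5 and 72.1 in the controls, 85.2 and 35.2 after 1 hr, and 51, 46.3 and 62.3 after 2 hr. On this probe set the 1 hr arrays were the highest and the lowest of the 8, and the ranges of controls and 2 hr arrays overlapped. Scn2b (U37147_at), a beta subunit linked to the alpha subunit by a disulphide bond, was above the floor on 4 of 8 arrays: control replicates 1 and 3 at 13.7 and 18.6, 1 hr replicate 2 at 15.8 and 2 hr replicate 1 at 14.7. Its log2 change after 2 hr was -0.31 (SE 0.368), read across values close to the floor.

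The Scnn1 genes encode the epithelial sodium channel, which is not voltage-gated and is best known from kidney, lung and colon. Its alpha subunit, Scnn1a (X70521_at), read 12.6, 13.5 and 37.1 in the controls, 38.5 and 9.2 after 1 hr, and 31.1, 13.4 and 43.6 after 2 hr. High and low arrays of Scnn1a occurred in every group. Scnn1b was above the floor only on 1 hr replicate 1, at 10.8, and was not tested. Scnn1g (X77933_at), the gamma subunit, read 49.3, 36.2 and 45.5 in the controls, 41.4 and 26.4 after 1 hr, and 35, 44.4 and 27.4 after 2 hr, with groups that overlapped.

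Among the calcium channels of transmitter release, Cacna1a, the P/Q type pore subunit of most central synapses and of Purkinje cells, was read by 4 probe sets. The brightest (rc_AI229031_s_at) read 204.6, 190 and 102.5 in the controls, 45.5 and 180.2 after 1 hr, and 191.3, 213.6 and 158 after 2 hr. On that probe set 1 hr replicate 1 was the lowest of the 8 arrays, and the other 1 hr array lay among the controls. AF051526_at read 9.6 and AF051527_s_at 7.7 on control replicate 3, against 51.6 to 110.5 and 15.1 to 109 on the other arrays. The log2 changes of the 4 probe sets ran from -0.39 to 1.03 after 2 hr and from -0.81 to 1.10 after 1 hr, with both signs at each time. Cacna1b (AF055477_at), the N type pore subunit, read 193.7, 325.4 and 113 in the controls, 140.3 and 114.2 after 1 hr, and 257.3, 170 and 142.4 after 2 hr. The 2 hr arrays all lay above the 1 hr arrays, and the controls covered both (log2 difference between 2 hr and 1 hr 0.54, SE 0.448; 0.30 without 2 hr replicate 1). On its other probe set (M92905_s_at) that difference was 0.26 (SE 0.355), and the groups overlapped.

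Cacna1e (L15453_at), the R type pore subunit, was among the steadiest members, at 45.5, 52.1 and 50.2 in the controls, 52.4 and 46.4 after 1 hr, and 41.6, 43.2 and 36.6 after 2 hr. Every 2 hr array lay below every control and every 1 hr array. The log2 change after 2 hr was -0.29 (SE 0.352, 95% interval -1.07 to 0.50; adjusted p = 1 in limma), a mean 1.22-fold lower, and the interval after 1 hr ran from -0.88 to 0.88. The SDs of the log2 values within the groups were 0.10, 0.12 and 0.13, and the moderated standard error of limma also draws on probe sets of like intensity.

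L type pore subunits gave mixed readings. Cacna1c (M59786_at), the main L type subunit of neurons, heart and smooth muscle, read 110.2, 116.4 and 84.9 in the controls, 147.3 and 65.4 after 1 hr, and 113.2, 73.6 and 93.5 after 2 hr. The 1 hr arrays were the extremes, and its log2 change after 2 hr was -0.16 (95% interval -0.99 to 0.67). A dimmer probe set of Cacna1c (M89924cds_s_at) read 7, 10.9 and 10.5 in the controls, 9.6 and 9.4 after 1 hr, and 14.2, 9.8 and 16 after 2 hr. All these values are close to the floor, and the 2 hr arrays lay above both 1 hr arrays (log2 difference 0.46, SE 0.294), which U31815_s_at did not show (-0.28, SE 0.609). Cacna1d, an L type subunit that opens at more negative voltages, read 37.5, 31.6 and 13.8 in the controls, 25.7 and 22.3 after 1 hr, and 34.5, 31.3 and 36 after 2 hr on D38101_s_at. All 2 hr arrays exceeded both 1 hr arrays on this probe set (log2 difference 0.50, SE 0.517), while control replicates lay on either side. The same order held on M99221_s_at, at 3.5, 21.2 and 40.4 in the controls, 17.3 and 15.8 after 1 hr, and 25.4, 17.4 and 20.6 after 2 hr (0.34, SE 0.584; 0.20 without 2 hr replicate 1). A further probe set of Cacna1d, M57682_at, was above the floor on 2 arrays, U31772_s_at on 1 and U49126_s_at on 0. The 2 probe sets of Cacna1s, the L type subunit of skeletal muscle, read between 2.5 and 6.4 and were at the floor on all 8 arrays.

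T type pore subunits included the smallest standard error among the 24 genes tested. Cacna1g (AF027984_at), the T type subunit of thalamic relay neurons, read 188.5, 220.6 and 164.9 in the controls, 221.5 and 199.5 after 1 hr, and 192.4, 209.4 and 166 after 2 hr. The highest array was 1.34-fold above the lowest, and the log2 change was 0.15 (95% interval -0.46 to 0.75) after 1 hr and -0.01 (95% interval -0.56 to 0.53) after 2 hr, so a 2-fold difference in either direction lay outside both intervals. Cacna1h (rc_AA859584_at), a second T type subunit, read 21.6, 46.6 and 56.7 in the controls, 57 and 11.5 after 1 hr, and 62, 70.9 and 43.9 after 2 hr. Control replicate 1 and 1 hr replicate 2 were low, and the interval of its 2 hr change was wide (-0.84 to 2.01).

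No accessory subunit of the calcium channels passed the test. Cacna2d1 (M86621_at), the alpha-2-delta subunit that binds gabapentin, read 426.6, 462.1 and 691.6 in the controls, 410.2 and 382.9 after 1 hr, and 461.1, 441 and 446.5 after 2 hr. Both 1 hr arrays lay below every control and every 2 hr array. The log2 change after 1 hr was -0.38 (SE 0.290, 95% interval -1.03 to 0.27; adjusted p = 1 in limma), and control replicate 3 stood above the rest of its group. Without that replicate the change was -0.16. After 2 hr it was -0.20 (95% interval -0.78 to 0.39).

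The 4 beta subunits bring the pore subunit to the membrane and tune its gating. Cacnb1 (rc_AA957892_at) read 121, 120.9 and 105.6 in the controls, 161 and 118.4 after 1 hr, and 112, 140.7 and 145.7 after 2 hr. Cacnb3 (M88751_at) read 216.6, 247.9 and 117.8 in the controls, 181.2 and 187.8 after 1 hr, and 151.1, 262 and 166.4 after 2 hr. Their groups overlapped, and the log2 change after 2 hr was 0.19 (95% interval -0.41 to 0.79) for Cacnb1 and 0.02 (95% interval -0.75 to 0.79) for Cacnb3. Cacnb2 (rc_AA891260_at) read 88.8, 110.6 and 88 in the controls, 158.4 and 43.9 after 1 hr, and 112.7, 35.4 and 68.6 after 2 hr. On this probe set the exposed arrays lay on both sides of all controls at each time. The other probe set of Cacnb2, M80545_at, read 30.7, 35 and 11.8 in the controls. It read 21.4 and 33.5 after 1 hr, within the range of the controls, and 39.5, 20.3 and 10.4 after 2 hr. Cacnb4 (L02315_at), the beta subunit lost in the lethargic mouse, read 26.6, 27 and 14.5 in the controls, 32.9 and 22 after 1 hr, and 35.4, 18.6 and 28.6 after 2 hr. Its groups overlapped as well.

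Cacng1 (Y09453cds_at), the gamma subunit of the skeletal muscle channel, read 56, 64.7 and 54.5 in the controls, 66.8 and 52.8 after 1 hr, and 47.1, 44.9 and 50.6 after 2 hr. As for Cacna1e, every 2 hr array lay below every control and every 1 hr array. The log2 change after 2 hr was -0.29 (SE 0.339, 95% interval -1.05 to 0.46; adjusted p = 1 in limma). The skeletal muscle markers summed to 755.1 to 1066.9 on the 2 hr arrays and 879.5 to 954.6 on the controls, and their part in the Cacng1 values was not tested.

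**Figure D2:**
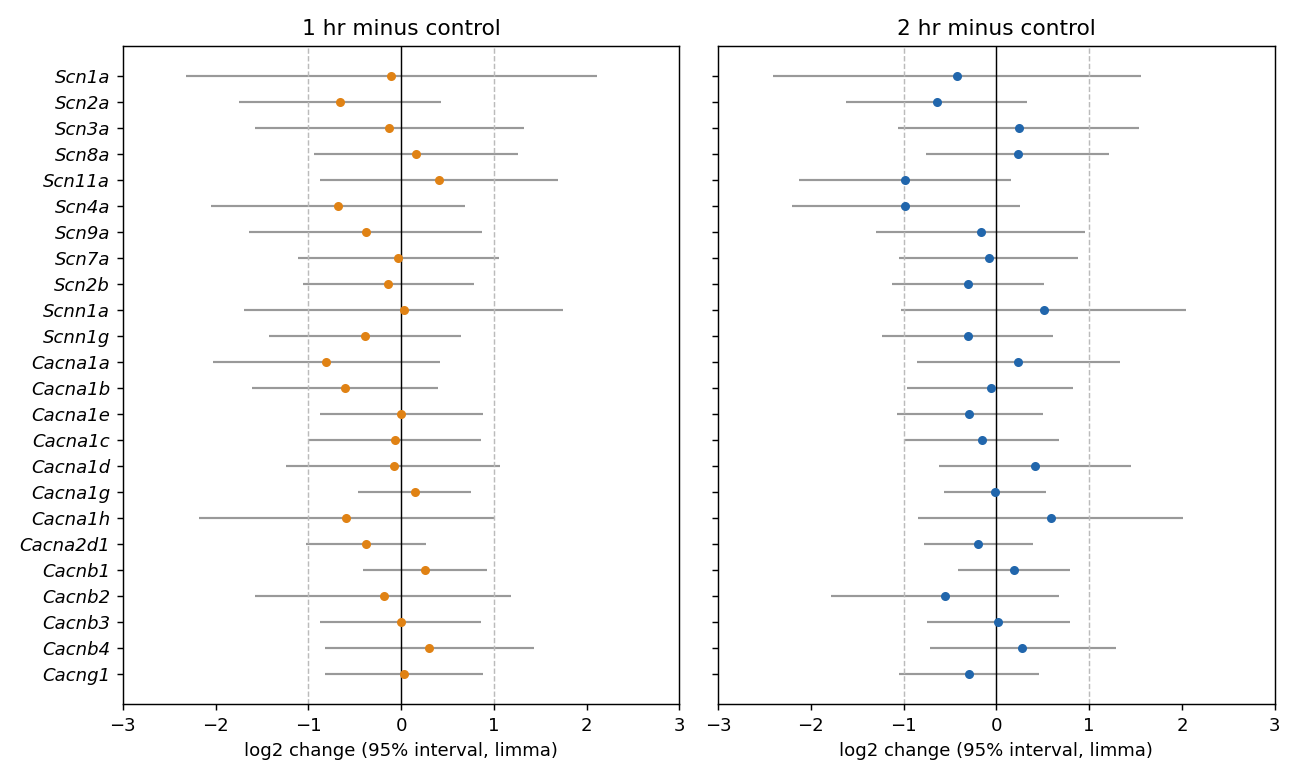
Log2 change (horizontal axis) of the brightest probe set of the 24 channel genes tested, 1 hr minus control on the left and 2 hr minus control on the right, with 95% intervals from limma; dashed lines mark changes of 1 in either direction. Each of the 24 intervals holds 0 in both panels, and 6 of 24 lie wholly between the dashed lines in each. Over all 4367 genes tested, 4254 intervals held 0 after 1 hr and 4295 after 2 hr. Those within the same bounds numbered 1029 after 1 hr and 1519 after 2 hr.

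Counts of probe sets whose groups did not overlap were read against the same count over all probe sets. After 2 hr, 3 of 40 (7.5%) lay wholly below the controls (Cacna1e, Cacng1 and U79568_s_at of Scn9a) and 0 wholly above, against 5.44% of all probe sets in either direction. After 1 hr, 1 of 40 (2.5%), Cacna2d1, lay wholly below, against 12.7% of all. For any exposure against control there were 0 of 40, against 1.93% of all. Between 2 hr and 1 hr 8 of 40 (20%) did not overlap, 5 higher and 3 lower after 2 hr, against 13.8% of all. The 5 were Cacna1b, Cacna2d1, M89924cds_s_at of Cacna1c and both probe sets of Cacna1d named above, and the 3 were Scn11a, Cacna1e and Cacng1. The comparisons against control share the same 3 control samples.

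The genes as a group leaned slightly below the controls, by less than arrays of 1 group differed. With the brightest probe set of each gene, 9 of 24 log2 changes after 2 hr were above 0 and 15 below, with a median of -0.12, against a median of 0.02 over the 4367 genes tested. After 1 hr 8 were above 0 and 16 below, with a median of -0.10, against 0.05 over all genes. Between 2 hr and 1 hr 12 were above and 12 below. The 11 sodium channel genes had a median of -0.31 after 2 hr (3 above 0, 8 below), and the 13 calcium channel genes one of -0.01 (6 above, 7 below). Within the sodium channel genes, the median was -0.10 for the 4 neuronal alpha subunits (2 above, 2 below). It was -0.98 for the 3 tested alpha subunits of sensory ganglia and muscle (0 above, 3 below) and 0.10 for 2 epithelial subunits (1 above, 1 below). These differences were not tested. The 1 hr median of the whole group rested on single arrays: it was -0.41 without 1 hr replicate 1 and 0.20 without 1 hr replicate 2. The 2 hr median of the whole group was 0.01 without control replicate 2. The median of the 24 genes on single arrays had an SD of 0.21 between arrays of 1 group.

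Precision differed between genes and set what could be seen. The standard error of the 2 hr change had a median of 0.436 over the 24 genes, from 0.243 for Cacna1g to 0.884 for Scn1a, against a median of 0.405 over all genes. The 6 genes whose 2 hr interval lay within 1 on the log2 scale were Cacna1b, Cacna1c, Cacna1g, Cacna2d1, Cacnb1 and Cacnb3. For the other 18 a 2-fold change in at least 1 direction was within the interval. Over all 4367 genes tested, 1519 had a 2 hr interval within 1 on the log2 scale.

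Part of the variation ran with a property of the arrays. Control replicate 3, 1 hr replicate 1 and 2 hr replicate 3 had the highest top intensities, 24393.4, 23009.4 and 37711.8, against 3504.2 to 12444.6 on the other 5 arrays, so that each group held 1 such array. Of the 40 channel probe sets 8 (20%) did not overlap between these 3 arrays and the other 5, against 14.9% of all probe sets. The 5 that were higher on the 3 arrays were all of sodium channel genes: Scnn1a by 1.45 on the log2 scale, Scn3a (Y00766_g_at) by 1.32, Scn9a (AF000368_at) by 0.80, Scn4a (M26643_at) by 0.78 and Scn7a (S75991_at) by 0.66. Other probe sets of these genes differed by 0.09 (D87922exon_at of Scn4a) to 0.91 (U79568_s_at of Scn9a). The 3 that were lower were all of calcium channels of transmitter release, with differences of -1.36 for AF051526_at and -1.11 for rc_AI229031_s_at of Cacna1a and -0.56 for M92905_s_at of Cacna1b. Neither direction held for the whole family. With overlap between the arrays, Scn1a (-1.10) and Scn2a (-0.70) were lower on the 3 arrays and Cacna1h (0.58) was higher. The part of this array property in the values of single genes was not tested. With it as a block in limma, 0 of 40 probe sets passed in any of the 4 comparisons.

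Over the 21 genes whose brightest probe set was above the floor on every array, control replicate 3 was the lowest of the 8 arrays for 8 genes (38.1%), against 22.7% of 3394 genes of the same kind. Next came 1 hr replicate 2 with 6 genes (28.6%, against 9.69%). The highest value lay on 1 hr replicate 1 for 7 of the 21 genes, against 19.9% of the 3394, the top share of any array there too. Median deviations from each gene's mean over the arrays were 0.10, 0.19 and -0.20 in the controls, 0.20 and -0.26 after 1 hr, and 0.22, -0.23 and -0.04 after 2 hr. The 1 hr arrays thus lay on opposite sides of 0, and every group held arrays on both sides. Over all 3394 genes the same medians lay between -0.07 and 0.11.

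**Figure D3:**
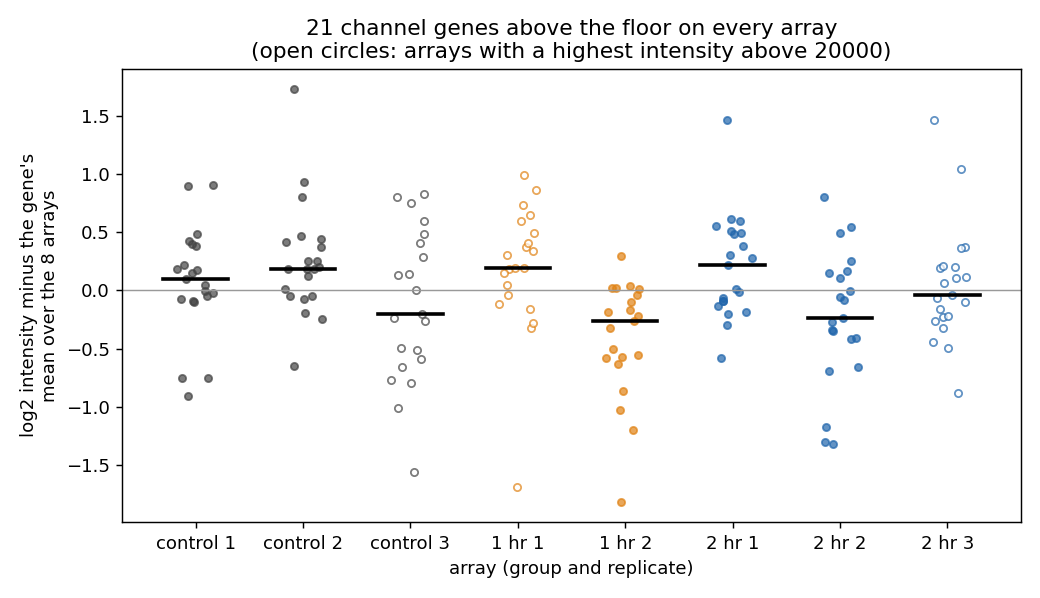
Log2 intensity minus the gene's mean over the 8 arrays (vertical axis) for 21 channel genes on each array (horizontal axis), with black bars at the medians and open circles for the 3 arrays with a top intensity above 20000. The medians run from -0.26 on 1 hr replicate 2 to 0.22 on 2 hr replicate 1, and each group has arrays above and below 0.

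Where a gene had several probe sets, their estimates could differ in sign, with intervals that all held 0 in both comparisons against control. Of 11 genes with more than 1 probe set, 10 had at least 2 that were tested. The sign of the 2 hr change differed between probe sets for 5 of these 10 (Scn3a, Scn8a, Scn4a, Cacna1a and Cacna1c) and that of the 1 hr change for 8. Over all 1375 genes with at least 2 tested probe sets, the sign differed for 46.1% at 2 hr and 49.3% at 1 hr. Scn7a, Cacna1b, Cacna1d and Cacnb2 kept 1 sign after 2 hr, as did Scn9a. Alpha subunits of the same family are similar in sequence. The probe sequences were not used here, and binding of one gene's transcript by another gene's probes was not tested.

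**Figure D4:**
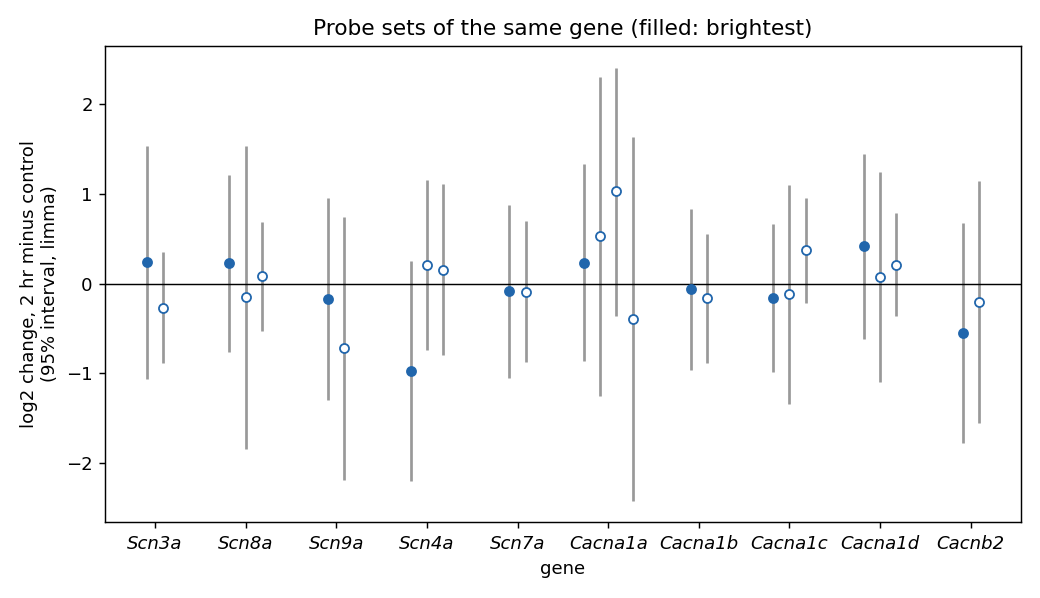
Log2 change of 2 hr minus control (vertical axis) with 95% intervals from limma for every tested probe set of the 10 genes with at least 2, the brightest filled. All intervals hold 0, and for Cacna1a the 4 estimates run from -0.39 to 1.03.

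Genes whose products bind, anchor or regulate these channels, or handle sodium and calcium beside them, were read from a list of 49, of which 37 were tested. In limma 0 of 37 passed in any comparison. After 2 hr 22 log2 changes were above 0 and 15 below (median 0.04), and after 1 hr 20 above and 17 below (median 0.02). At an unadjusted p under 0.05 there were 0 of 37 after 2 hr (1.79% of all probe sets) and 2 after 1 hr (2.68% of all). There was 1 for any exposure (2.21% of all) and 1 between 2 hr and 1 hr (2.77% of all). Itpr2 (X61677complete_seq_at), an intracellular calcium release channel gated by inositol trisphosphate, read 9.3, 11.9 and 6.5 in the controls, 29.4 and 19.4 after 1 hr, and 10.8, 9.8 and 9.7 after 2 hr. Both 1 hr arrays of Itpr2 lay above all others, by a log2 change of 1.25 over control (SE 0.312, unadjusted p = 0.00265, adjusted p = 1 in limma). The control and 2 hr values of Itpr2 lay close to the floor of 9.1, and no other probe set of this gene was tested. Atp2b3 (J05087_at), a calcium pump of the plasma membrane, read 368.1, 257.9 and 226.9 in the controls, 178.6 and 159.1 after 1 hr, and 219.4, 234.8 and 273.7 after 2 hr. Its 1 hr arrays lay below all others (log2 change -0.72, SE 0.294, adjusted p = 1 in limma), and its other probe sets read -0.64 and -0.46. These genes also had the smallest p for any exposure, at log2 changes of 0.63 for Itpr2 and -0.46 for Atp2b3. The smallest p after 2 hr belonged to Ank3, the anchor of sodium channels at the axon initial segment, at a log2 change of -0.48 (SE 0.288; -0.36 to -0.03 on its 4 other probe sets), and to Camk2a, a calcium-dependent kinase, at 0.77 (SE 0.498; 0.29 on its other probe set). Between 2 hr and 1 hr the smallest p belonged to Itpr2, at -1.24 (SE 0.312), and to Nalcn, the sodium leak channel, at 1.53 (SE 0.691) on AF078779_g_at and 0.12 on its other probe set.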

How the data were processed

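Per the series table, the authors deposited 1 linear intensity per probe set and array, for 8799 probe sets on 8 arrays. Software and scaling: not given in the sources used here. With 2% trimmed off, array means ran from 150.17 to 150.32, so the columns were used as deposited. The 59 control probe sets were left out. Values were floored at 9.1 and log2 was taken, which understates changes of dim genes. Gene names came from the annotation table of the platform, and symbols updated by gene number gave the same 46 members. The number of arrays limits the precision.

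Groups were compared with limma 3.58.1 in R 4.3.3 on all 8 arrays (eBayes with trend, two-sided tests). Adjustment followed Benjamini and Hochberg over 7770 probe sets, at a threshold of 0.05. Intervals are 95% intervals from the moderated standard error. The steps were tested on simulated data. Identical values shared by a pair of arrays numbered at most 70.

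Members, the partner list and the marker lists of neuron, skeletal muscle, heart, sensory ganglion, pituitary and epithelium were chosen with earlier results of these data known. Every gene is named. Values on every array are given for brightest probe sets above the floor on all arrays and for probe sets whose groups did not overlap or whose unadjusted p was under 0.05. Of the partner list, those with the 2 smallest p per comparison are named. Alternatives were other scalings, floors and filters, a pseudocount, no trend, blocks, and leaving out arrays.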

Additional observations from a re-analysis of the deposited data

Results flagged for a closer look

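Scn11a (AF059030_at) drew attention because both 1 hr arrays lay above the control mean of the floored log2 values (4.24) and all 2 hr arrays below it. The log2 difference between 2 hr and 1 hr was -1.39, and it did not pass (limma, adjusted p = 1). It was -0.99 without the 3 arrays of highest top intensity and -1.27 with them as a block.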

How the results depend on the processing

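Over the alternative settings that left at least 2 samples in every group, 0 members were called in each of the 4 comparisons in limma. Without the filter, 4 of 8740 probe sets passed for 1 hr against control and 4 for 2 hr against 1 hr, none of them a member, against 0 in the main setting. The median log2 change of the member genes ran from -0.20 to 0.01 for 2 hr against control and from -0.28 to 0.04 for any exposure. For 1 hr against control it was -0.39 without the 3 arrays of highest top intensity and ran from -0.41 to 0.20 when single arrays were left out. For 2 hr against 1 hr it was 0.23 without those 3 arrays and ran from -0.27 to 0.25 when single arrays were left out; some of these settings leave 1 sample after 1 hr, assumed to vary like the other groups. Median centring moved the median of all probe sets for 1 hr against control from 0.05 to -0.06 and that of the member genes from -0.10 to -0.21. Correlations of deviations from the group means ran from -0.33 to 0.29 for samples of the same number and from -0.36 to 0.40 for others. In groups this small such correlations cannot decide pairing, because deviations within a group cancel. The labels do not state pairs, so the numbers were not taken as pairs. With the replicate block 0 members passed, and the 1 hr median was -0.17. For channel probe sets named in the report for groups that did not overlap, most alternatives could not reverse the direction. These were leaving out arrays and changing the floor, pseudocount, filter or trend. Other scalings could, as could the blocks in comparisons with 1 hr, and under these each difference kept its direction. The differences of Itpr2 and Atp2b3 were not recomputed. Changes of dim probe sets such as those of Scn11a are limited by the floor.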
